A study of Saccharomyces cerevisiae with 12 samples.

Results

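The weak nucleosome calls described here were the 2984 entries of the WT1 position list on nuclear chromosomes whose peak height was under 0.3, 3.92% of the 76048 nuclear calls of that list. A call is a position at which the authors' software placed a nucleosome in MNase-seq data, and its peak height is the smoothed signal at the summit. The calls were chosen by their WT1 peak heights, so their low WT1 heights, and the read counts that go with them, are given as a description and were not tested. WT1 itself entered no test of these calls.

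The study mapped nucleosomes in Saccharomyces cerevisiae BY4741, a haploid laboratory strain, grown to mid-log phase at 30 °C in rich medium (YPD). Spheroplasts were digested with micrococcal nuclease (MNase), which cuts the DNA between nucleosomes, at concentrations that the labels give only as a set of 3 for all samples. The 12 samples formed 6 groups of 2 replicates: 3 wild-type groups (WT1, WT2 and WT3), a group without Ioc3 (Ioc3-KO), and groups with Ioc3 changed at a pair of residues, named Ioc3-R739E/R742E after the labels in one case and Ioc3-Q251K/D252K in the other. Each group was deposited as 1 position list that pools its replicates, so 1 list stands for each mutant genotype and the replicates of a group cannot be compared. The 6 lists held 75746 to 77288 nuclear calls and 10281474 to 10347642 reads in them. In the coding sequence of IOC3 the Ioc3-KO list held 5 calls with 825 reads, and the other lists, both point mutants included, held 16 to 18 calls with 2228 to 2570 reads.

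Ioc3 is the subunit that joins the Isw1 ATPase in the ISW1a chromatin remodeller, which slides and spaces nucleosomes. Most yeast promoters have a nucleosome-depleted region upstream of the coding sequence, kept open by general regulatory factors, by DNA that bends poorly around histones and by the remodeller RSC. Well-placed nucleosomes border this region on both sides, and regular arrays run into the gene. A position caller can still place a call inside a depleted region when a few fragments lie there.

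The weak calls made up most of a small low group in the WT1 heights, whose trough lay above the threshold. The number of calls per 0.1 of height was 1289 from 0.1 to 0.2, 644 in the trough from 0.4 to 0.5, and 5474 at the peak from 1.3 to 1.4. The weak calls had a median height of 0.149 (10th to 90th percentile 0.0608 to 0.262), where the other 73064 WT1 calls had a median of 1.47. Their median read count was 18 (7 to 33), beside 139 for the other calls, and together they held 58625 reads, 0.569% of the reads in nuclear WT1 calls. Reads in weak calls were also more spread out: the standard deviation of read positions within a call, a measure of fuzziness, had a median of 38.5 bp, beside 31.6 bp.

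**Figure D1:**
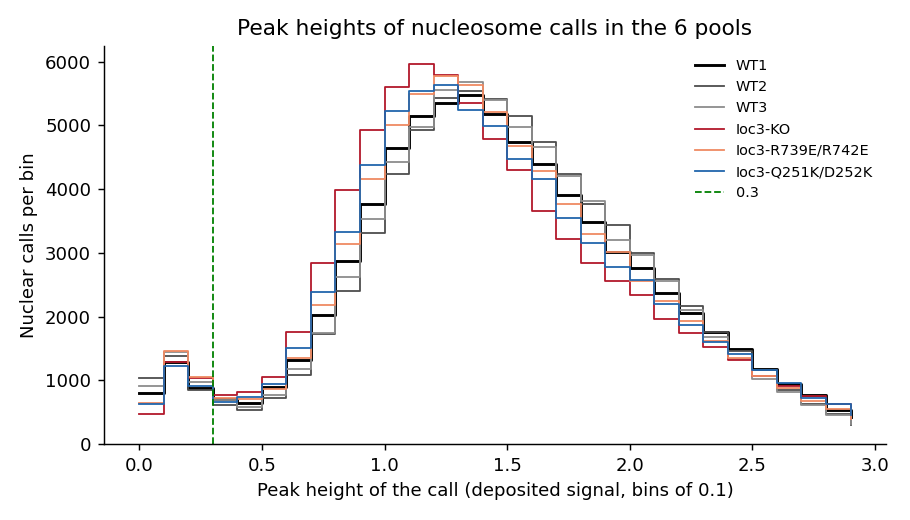
Number of nuclear calls (y axis) by peak height in bins of 0.1 (x axis, deposited signal, shown up to 3) in each of the 6 pools; the dashed line marks 0.3. Each pool has a small low group, a trough and a broad main group; in WT1 the trough from 0.4 to 0.5 holds 644 calls and the bin from 1.3 to 1.4 holds 5474.

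The values show how few reads stand behind such a call. Over the 6 lists, 54 calls held a single read, and in 17 of them the height lay within 1e-06 of 0.0199, which is the summit of a Gaussian curve of 20 bp standard deviation that carries 1 read; the highest of the 54 was 0.0200. On that scale a height of 0.3 equals about 15 reads stacked at the summit. Read counts and place changed gradually across the threshold: the 396 calls from 0.25 to 0.3 had a median of 31 reads and 56.3% of them lay near a start codon, and the 358 calls from 0.3 to 0.35 had 37 reads and 46.9%. In WT1, 7 of the weak calls held 0 reads.

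The same height rule applied to each other list found groups of similar size. WT2 held 3281 weak calls (4.33%), WT3 held 3347 (4.41%), Ioc3-KO held 2786 (3.60%), Ioc3-R739E/R742E held 3167 (4.12%) and Ioc3-Q251K/D252K held 2773 (3.62%). WT1, with 3.92%, lay below the other wild-type lists and above Ioc3-KO and Ioc3-Q251K/D252K, so the wild-type and Ioc3 lists overlapped in this share.

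Weak calls lay mainly upstream of coding sequences. Of the 2984, 2233 (74.8%, exact binomial 95% interval 73.2 to 76.4, counting error only) were in the start codon window of a protein-coding gene, which runs from 400 bp upstream of the start codon to 50 bp into the gene, where 16.1% of the other WT1 calls lay. Only 99 (3.32%) lay in coding sequence outside such a window, against 72.4% of the other calls. The remaining 652 (21.8%) lay in neither, and 356 of these were within 400 bp of a stop codon. Distances are to the start codon, since transcription start sites were not used here.

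Within the window the weak calls had a median position of 167 bp before the start codon, with quartiles at 242 and 124 bp before it. In bins of 50 bp, the bin from 150 to 100 bp upstream held 607 of them (20.3%), and 44.3% of all WT1 calls in that bin were weak. The next bin away from the gene, from 200 to 150 bp upstream, held 500, and the last 50 bp before the start codon held 22. The other calls showed the opposite layout, with a repeated rise and fall inside the coding sequence and few calls where the weak ones were densest. In the other 5 lists, 72.1 to 76.2% of the calls under 0.3 lay in the window.

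**Figure D2:**
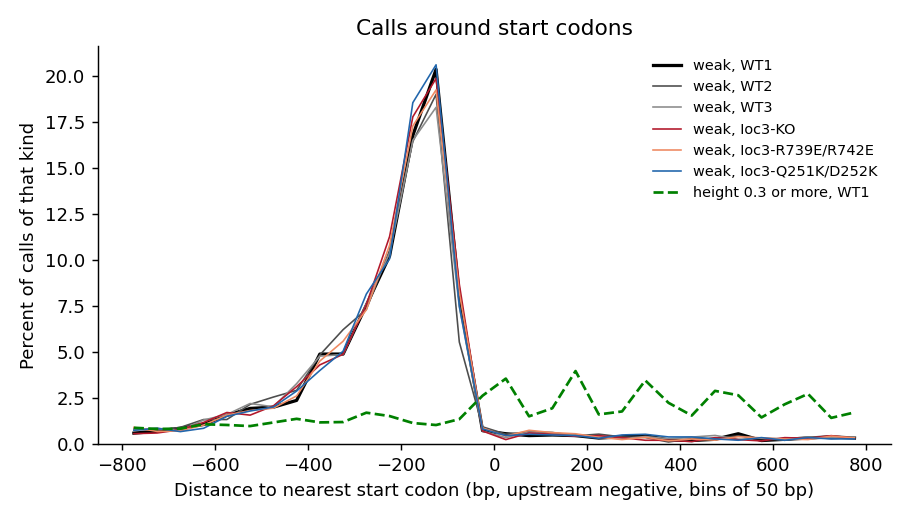
Percent of calls (y axis) by distance to the nearest start codon in bins of 50 bp (x axis, upstream negative) for calls under 0.3 in each pool (solid lines) and for WT1 calls of 0.3 or more (dashed). Weak calls of all 6 pools peak in the bin from 150 to 100 bp upstream, with 20.3% of the weak WT1 calls, while stronger calls are spread along the coding sequence.

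Weak calls were squeezed between tall neighbours. The nearest WT1 call was at a median of 117 bp, beside 154 bp for the other calls, and 27.3% had a call closer than 100 bp, beside 15.6%. A nucleosome core covers more DNA than this distance. The distance from the call before to the call after had a median of 282 bp, beside 324 bp for the other calls. The flanking calls had a median height of 1.84, beside 1.43 for the flanks of other calls, and 11.6% of the flanks were weak themselves. Around calls in the start codon window the flanks had a median height of 1.98, and around the 652 in neither region they had 1.25.

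A group of weak calls lay beside tRNA genes, short genes that RNA polymerase III transcribes and that TFIIIC keeps open. Within 100 bp of a tRNA gene lay 141 weak WT1 calls (4.73%) and 0.354% of the other WT1 calls. The share among weak calls was 7.35% in WT2, 6.60% in WT3, 4.95% in Ioc3-KO, 5.30% in Ioc3-R739E/R742E and 4.26% in Ioc3-Q251K/D252K. WT2 and WT3 were the highest, and WT1 lay among the Ioc3 lists. Chromosome ends did not hold more than their part: 4.32% of the weak calls were within 20 kb of an end, beside 5.32% of the others. The share of calls that were weak ran from 3.47 to 4.64% over the chromosomes.

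Of 6002 nuclear protein-coding genes, 2477 (41.3%) had a weak WT1 call in the start codon window, and 260 of these had 2 or more. One weak call can lie in the windows of a divergent gene pair, and 523 lay in the windows of 2 genes. Among cytosolic ribosomal protein genes 104 of 138 (75.4%) had one, and among ribosome biogenesis genes 47 of 68 (69.1%). All 6 general regulatory factor genes (REB1, ABF1, RAP1, CBF1, MCM1 and TBF1) had one, as did 16 of 29 heat shock and chaperone genes and 32 of 65 amino acid synthesis genes. The shares were below that of all genes for cyclins (8 of 23), glycolysis and hexose transport (9 of 35), meiosis (8 of 42) and histones (2 of 11). The histone genes with a weak call were HTZ1, for the variant H2A.Z, and HHO1, for the linker histone. These lists were set beside the share over all genes as a description, with no test.

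Weak calls were found again less often than other calls. A call within 70 bp of a weak WT1 call was present in WT2 for 2085 (69.9%, exact binomial 95% interval 68.2 to 71.5), in WT3 for 2123 (71.1%, 69.5 to 72.8), in Ioc3-KO for 2169 (72.7%, 71.1 to 74.3), in Ioc3-R739E/R742E for 2229 (74.7%, 73.1 to 76.3) and in Ioc3-Q251K/D252K for 2148 (72.0%, 70.3 to 73.6). For the other WT1 calls the share was 97.2 to 97.5% in each list. The 3 Ioc3 lists gave the higher shares, but the intervals of Ioc3-KO and Ioc3-Q251K/D252K overlapped those of both WT2 and WT3. Only the interval of Ioc3-R739E/R742E lay above both, and all intervals cover counting error only. The nearest WT1 call to a weak call was at a median of 117 bp, so a limit of 70 bp can also be met by a neighbour. The match lay at a median of 12 to 14 bp for weak calls and 3 to 5 bp for other calls, depending on the list.

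Presence was higher for calls with larger WT1 heights. Calls under 0.05 were matched for 49.0% in WT2 and for 57.7% in Ioc3-KO, the lowest and the highest list, and 12.4% were matched in all 5 lists. Calls from 0.25 to 0.3 were matched for 77.3 to 82.3% by list, and 53.0% in all 5. Of all weak calls, 1127 (37.8%) were matched in all 5 lists and 139 in none, while 93.1% of the other calls were matched in all 5. Of the weak calls, 53 had a match in all 3 Ioc3 lists and in neither WT2 nor WT3, and 30 had one in WT2 and WT3 and in no Ioc3 list. All of these are calls of WT1, a wild-type list, so the 53 are not a split by genotype. The matching counts over all WT1 calls are not given here.

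**Figure D3:**
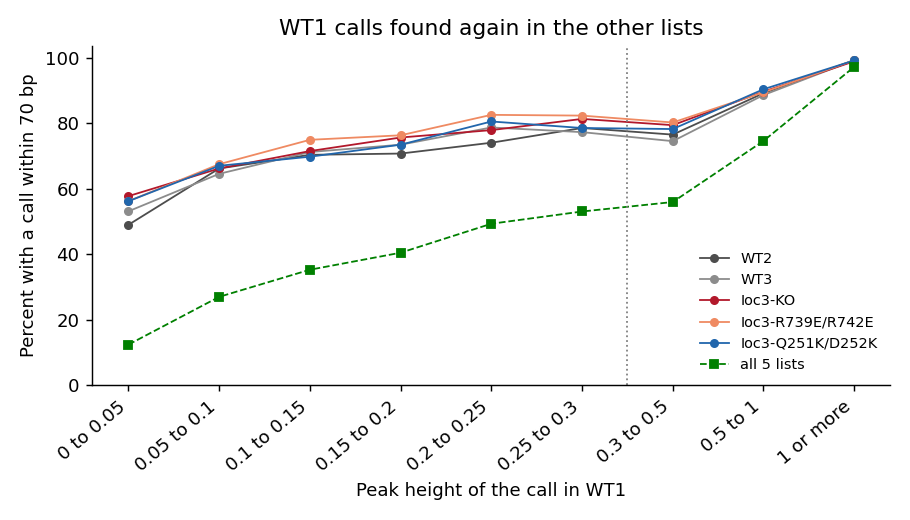
Percent of WT1 calls with a call within 70 bp (y axis) in each of the other 5 lists (circles) and in all 5 (squares), by WT1 peak height (x axis); the dotted line marks 0.3. Below 0.05 the lists give 49.0 to 57.7%, from 0.25 to 0.3 they give 77.3 to 82.3%, and the share in all 5 lists goes from 12.4 to 53.0% between these bins.

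The matches were mostly weak as well. Their median height was 0.139 in WT2, 0.147 in WT3, 0.198 in Ioc3-KO, 0.174 in Ioc3-R739E/R742E and 0.180 in Ioc3-Q251K/D252K. The share still under 0.3 was 94.0% in WT2, 91.0% in WT3, 79.8% in Ioc3-KO, 87.0% in Ioc3-R739E/R742E and 83.1% in Ioc3-Q251K/D252K. The median read count was 15, 17, 23, 20 and 20 in the same order. In median height and reads each of the 3 Ioc3 lists was above both WT2 and WT3, and in the share under 0.3 each was below them. A match reached a height of 1 or more for 1 to 3 weak calls per list.

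The 139 weak calls with no match in any list were crowded. Their nearest WT1 call was at a median of 104 bp, with 43.9% under 100 bp; for weak calls matched in 1 or 2 lists the median was 105 bp in both cases, with 37.8 and 37.9% under 100 bp. Of the 6 with the most WT1 reads, those nearest to the start codons of KIN3, VBA5 and ULP1 lay in the start codon window, and those nearest to DAL1, DPH6 and SUI3 lay outside it. They held 64 to 83 reads at heights from 0.199 to 0.289, with the nearest WT1 call 77 to 92 bp away. The reads of these calls were widely spread in 5 of the 6, with standard deviations of 47.8 bp or more, beside 36.4 bp near DPH6. ULP1 encodes a SUMO protease, and its call lay 15 bp after the start codon at chromosome XVI, position 514163.

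Peak heights were then compared between the 3 Ioc3 pools and WT2 with WT3, to learn whether the weak signal changed when Ioc3 was missing or mutated. The fit held all 68094 nuclear WT1 calls matched one to one in the other 5 lists, and 1053 weak calls (35.3% of them) entered it, beside 91.8% of the other calls. The 1931 weak calls without a full set of matches were not tested. Requiring a match in every list leaves taller calls: the 1053 had a median WT1 height of 0.175.

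The median height of the 1053 calls was 0.152 in WT2, 0.159 in WT3, 0.219 in Ioc3-KO, 0.193 in Ioc3-R739E/R742E and 0.204 in Ioc3-Q251K/D252K. Their summed reads were 18221, 19606, 26125, 22965 and 23826 in the same order. Every Ioc3 pool was above both wild-type pools in each measure, with Ioc3-KO the highest. As the log2 height over the pool's own median, the levels were -3.28 in WT2, -3.19 in WT3, -2.62 in Ioc3-KO, -2.86 in Ioc3-R739E/R742E and -2.78 in Ioc3-Q251K/D252K, while the median over all 68094 calls was between 0.07 and 0.09 in every pool.

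**Figure D4:**
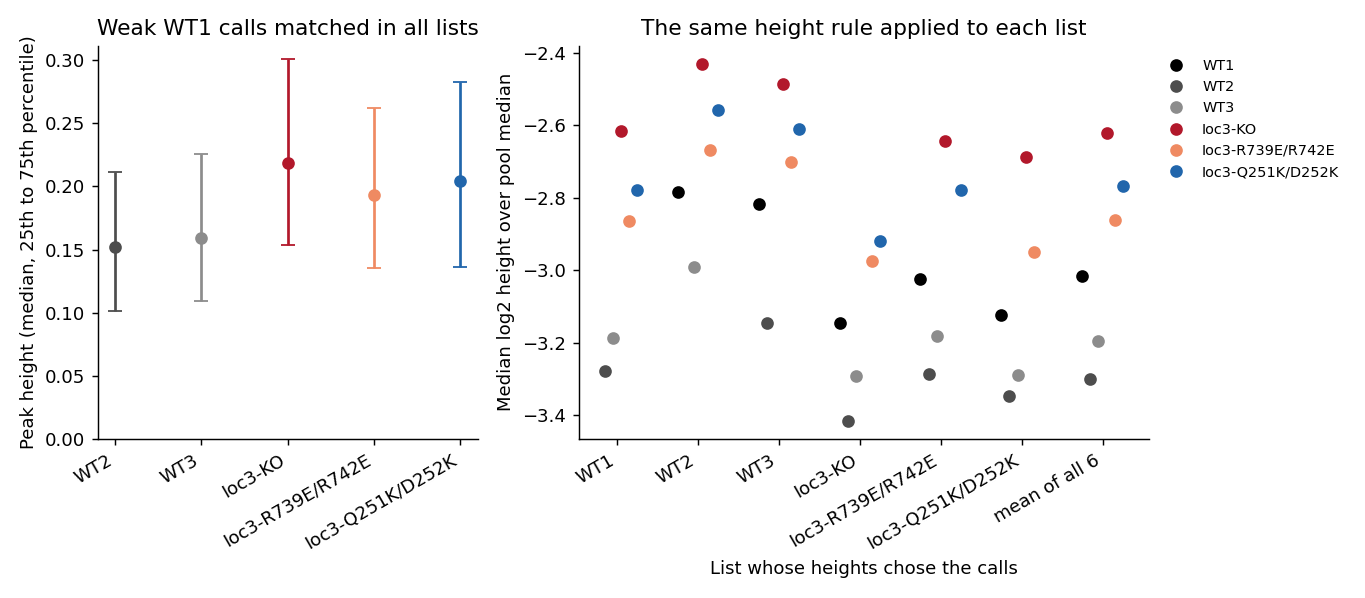
Left, peak height of the 1053 weak WT1 calls matched in all lists (y axis; points are medians, bars the 25th to 75th percentile) in WT2, WT3 and the 3 Ioc3 pools. Right, median log2 height over the pool median (y axis) in each pool when the rule of a height under 0.3 is applied to each list in turn, with that list left out, or to the mean of all 6, with none left out (x axis). The Ioc3 pools lie above the wild-type pools in each column, and WT1 lies between.

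For each call the difference was taken as the mean centred log2 height of the 3 Ioc3 pools minus that of WT2 and WT3. It was above 0 for 926 of the 1053 weak calls (87.9%) and for 58.8% of all calls, and its median was 0.48 for the weak calls and 0.04 for all calls. With limma and Benjamini-Hochberg adjustment over all 68094 calls, 139 weak calls were higher and 0 were lower, where 0.971% of all calls were higher and 0.0499% lower. At an unadjusted limma p under 0.05, 525 weak calls were higher and 13 lower, where 13.2% of all calls were higher and 4.87% lower. The called share depends on how the spread is modelled. Between WT2 and WT3 the log2 height had a standard deviation of 0.77 over the weak calls and 0.22 over all calls. When limma's prior spread was allowed to follow the height, 55 weak calls were called (5.22%), near the 5.13% of all calls called higher in that fit (0.718% were lower), and 46 of the 139 were among them.

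The median difference was above 0 whichever list chose the calls. With the rule applied in turn to WT2, to WT3, to Ioc3-KO, to Ioc3-R739E/R742E and to Ioc3-Q251K/D252K, and the choosing list left out, the median difference was 0.35, 0.39, 0.34, 0.46 and 0.44. With the mean of all 6 lists it was 0.41, but no list was left out there, so the compared heights also chose the calls. WT1, the third wild-type pool, lay above WT2 and WT3 and below every remaining Ioc3 pool in each of these choices. For the calls weak in Ioc3-KO, the median height was 0.163 in WT1, 0.138 in WT2, 0.148 in WT3, 0.179 in Ioc3-R739E/R742E and 0.185 in Ioc3-Q251K/D252K. WT1 was thus as close to the nearest Ioc3 pool as to the other wild-type pools. With these calls and all 3 wild-type pools in limma, 9 of 889 were called higher and 0 lower with adjustment over all calls, where 0.0220% of all calls were higher. With a prior that follows the height, 2 of the 889 were called, where 0.599% of all calls were higher.

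On the centred scale, 413 of the 1053 weak calls (39.2%) had all 3 Ioc3 pools above both WT2 and WT3, and 24.8% of all calls did. The opposite order held for 13 weak calls (1.23%) and for 12.4% of all calls. In the 139 called members the fold of mean height had a median of 1.95. Of the 139, 95 (68.3%) lay in the start codon window, as did 74.5% of the weak calls tested. Leaving out a pool moved the count, given here in either direction beside the share of all calls: it was 75 without WT2 (0.234%), 108 without WT3 (0.355%), 45 without Ioc3-KO (0.163%), 198 without Ioc3-R739E/R742E (1.81%) and 157 without Ioc3-Q251K/D252K (0.695%), of which 0, 0, 0, 2 and 2 were lower. With heights as deposited, not centred on each pool's median, 54 were higher and 0 lower (0.241% of all calls in either direction).

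Above the threshold the difference went on to 0.5. Its median was 0.51 for WT1 heights under 0.1, 0.49 from 0.1 to 0.2, 0.46 from 0.2 to 0.3 and 0.45 from 0.3 to 0.5, and then 0.05 from 0.5 to 1, -0.01 from 1 to 1.5, 0.03 from 1.5 to 2 and 0.11 at 2 or more. Calls below 0.5 thus shared a difference of similar size, and calls in the main group had values near 0. By place, the median was 0.48 in the start codon window, 0.35 in coding sequence outside it (28 calls) and 0.50 in neither. The 60 tested weak calls within 100 bp of a tRNA gene had a median of 0.65, and 98.3% were above 0. With limma's constant prior, 17 were called higher (28.3%), beside 13.2% of all tested weak calls and 0.971% of all calls. For all tested weak calls a prior that follows the height gave 5.22%, and its value for this group is not given here. WT1 does not enter this difference, and its share of weak calls near tRNA genes lay among the Ioc3 lists.

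The heights of the neighbouring calls moved with these values. The calls that flanked the 1053 weak calls had a median height of 1.73 in WT2, 1.68 in WT3, 1.90 in Ioc3-KO, 1.78 in Ioc3-R739E/R742E and 1.90 in Ioc3-Q251K/D252K. Relative to the pool's median height this was 1.17, 1.15, 1.42, 1.27 and 1.36. Every Ioc3 pool was above WT2 and WT3 here too. The distance between the flanks was 299 to 303 bp in all 5 pools. What part the taller flanks have in the heights of the weak calls was not tested.

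Read counts gave fewer calls. The median reads of the 1053 calls were 16 in WT2, 17 in WT3, 23 in Ioc3-KO, 21 in Ioc3-R739E/R742E and 20 in Ioc3-Q251K/D252K. Each Ioc3 pool was above both wild-type pools, by 3 to 7 reads. With edgeR's quasi-likelihood test and Benjamini-Hochberg adjustment over all calls, 16 weak calls were higher and 0 lower, where 1.02% of all calls were higher and 0.376% lower, a share of weak calls (1.52%) close to the background. The median log2 difference was 0.40 for the weak calls and 0.00 for all calls. All 3 Ioc3 pools were above WT2 and WT3 in reads for 419 weak calls (39.8%; 18.4% of all calls) and below both for 16 (17.3% of all calls). DESeq2 called 0, with 105 at an unadjusted p under 0.05, where 3.81% of all calls were. The edgeR count in either direction was 0 without WT2 or without WT3 (0% of all calls in both), 3 without Ioc3-KO (0.211%), 23 without Ioc3-R739E/R742E (3.73%) and 37 without Ioc3-Q251K/D252K (1.85%). Of the 16 weak calls called higher in reads, 13 were also called higher in height. The matching share over all calls is not given here.

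Fuzziness was the measure that the choice of calls did not use. The median standard deviation of read positions in the 1053 calls was 35.1 bp in WT2, 35.6 in WT3, 36.0 in Ioc3-KO, 36.3 in Ioc3-R739E/R742E and 35.5 in Ioc3-Q251K/D252K, and the groups overlapped. With limma 0 weak calls were called, as were 0% of all calls, and 0 with a prior that follows the level. At an unadjusted limma p under 0.05 there were 272, of which 150 were higher, where 8.17% of all calls were higher and 2.18% lower. Without WT2, WT3, Ioc3-KO, then Ioc3-R739E/R742E or Ioc3-Q251K/D252K, limma called 15, 17, 4, 3 and 4 weak calls in either direction, where 0.0323%, 0.0294%, 0.00734%, 0.00441% and 0.00587% of all calls were called.

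Each Ioc3 genotype was also set against WT2 and WT3 in limma, with 1 residual degree of freedom, so that the lone mutant pool is assumed to vary as WT2 and WT3 do. Ioc3-KO gave 286 weak calls higher and 4 lower, where 1.64% of all calls were higher and 0.407% lower. Ioc3-R739E/R742E gave 51 and 7 (0.117% and 0.0147% of all calls), and Ioc3-Q251K/D252K gave 205 and 26 (1.89% and 0.231%). The 3 comparisons share WT2 and WT3, so their calls are not independent. With a prior spread that follows the height, the counts of higher weak calls were 52 for Ioc3-KO (8.98% of all calls were higher), 9 for Ioc3-R739E/R742E (0.617%) and 22 for Ioc3-Q251K/D252K (5.11%). In those fits 0, 0 and 1 weak calls were lower, where 2.53%, 0.0911% and 1.05% of all calls were lower. As a share of the 1053 tested, weak calls were thus called higher less often than all calls for Ioc3-KO and Ioc3-Q251K/D252K. For Ioc3-R739E/R742E their share was slightly above that of all calls. With the constant prior their shares were above those of all calls for each genotype, so this order depends on the prior. No test compared the genotypes with each other.

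The called weak calls with the largest differences were at different kinds of genes. Near TFC3, which encodes a subunit of the RNA polymerase III factor TFIIIC, a call lay 377 bp upstream of the start codon (YAL001C, chromosome I, position 151543). Its height was 0.0600 in WT1, 0.0222 in WT2, 0.0419 in WT3, 0.246 in Ioc3-KO, 0.319 in Ioc3-R739E/R742E and 0.169 in Ioc3-Q251K/D252K. WT2 and WT3, with 4 and 3 reads, lay below all 3 Ioc3 pools, with 11 to 22 reads; the low WT1 height was fixed by the choice of calls. The log2 difference was 3.04 ± 0.28 (SE; limma adjusted p = 0.00203), and edgeR's adjusted p for reads was 0.0373.

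NRM1, whose product represses genes of the G1 to S transition, had a call 202 bp upstream (YNR009W, chromosome XIV, position 642488). Its height was 0.184 in WT1, 0.0204 in WT2, 0.0404 in WT3, 0.250 in Ioc3-KO, 0.128 in Ioc3-R739E/R742E and 0.221 in Ioc3-Q251K/D252K. WT2 and WT3 were below the Ioc3 pools, while WT1 lay within their range. The log2 difference was 2.83 ± 0.31 (SE; limma adjusted p = 0.00477), and it was 2.79 in reads (edgeR adjusted p = 0.00969).

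Ribosomal protein genes gave 2 of the 8 largest. RPL43B, for a protein of the large subunit, had a call 145 bp upstream (chromosome X, position 608160) with heights of 0.168 in WT1, 0.0679 in WT2, 0.0254 in WT3, 0.230 in Ioc3-KO, 0.142 in Ioc3-R739E/R742E and 0.390 in Ioc3-Q251K/D252K. Again WT2 and WT3 were low and WT1 lay within the Ioc3 range; the log2 difference was 2.57 ± 0.41 (SE; limma adjusted p = 0.0206). RPL4A had a call 113 bp upstream (chromosome II, position 300053) with heights of 0.0200, 0.0206 and 0.0213 in WT1, WT2 and WT3 and 0.0971 in Ioc3-KO, 0.116 in Ioc3-R739E/R742E and 0.0653 in Ioc3-Q251K/D252K. The wild-type heights are each about what 1 read gives at the summit, although WT2 had 11 reads in the call, and the reads did not pass (edgeR adjusted p = 0.88). With a prior that follows the height, RPL4A did not pass either (limma adjusted p = 0.0645).

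UTP5 belongs to the complex that processes the small ribosomal subunit, and its call 191 bp upstream (chromosome IV, position 1267280) had heights of 0.0453 in WT1, 0.0217 in WT2, 0.0448 in WT3, 0.114 in Ioc3-KO, 0.140 in Ioc3-R739E/R742E and 0.147 in Ioc3-Q251K/D252K. WT2 and WT3, with 4 and 6 reads, lay below the 3 Ioc3 pools, with 11 to 12 reads. The log2 difference was 2.18 ± 0.24 (SE, limma adjusted p = 0.00537), and the reads did not pass (edgeR adjusted p = 0.21). APJ1 encodes a chaperone of the J-domain family, and its call 231 bp upstream (chromosome XIV, position 481160) had heights of 0.291 in WT1, 0.0838 in WT2, 0.220 in WT3, 0.468 in Ioc3-KO, 0.340 in Ioc3-R739E/R742E and 0.613 in Ioc3-Q251K/D252K. WT2 and WT3 lay below the Ioc3 pools and differed from each other by more than 2-fold; the limma adjusted p was 0.0344, and for reads edgeR's adjusted p was 0.0117. The other calls among the 8 lay near SGN1 and BSC1, outside the start codon window.

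**Figure D5:**
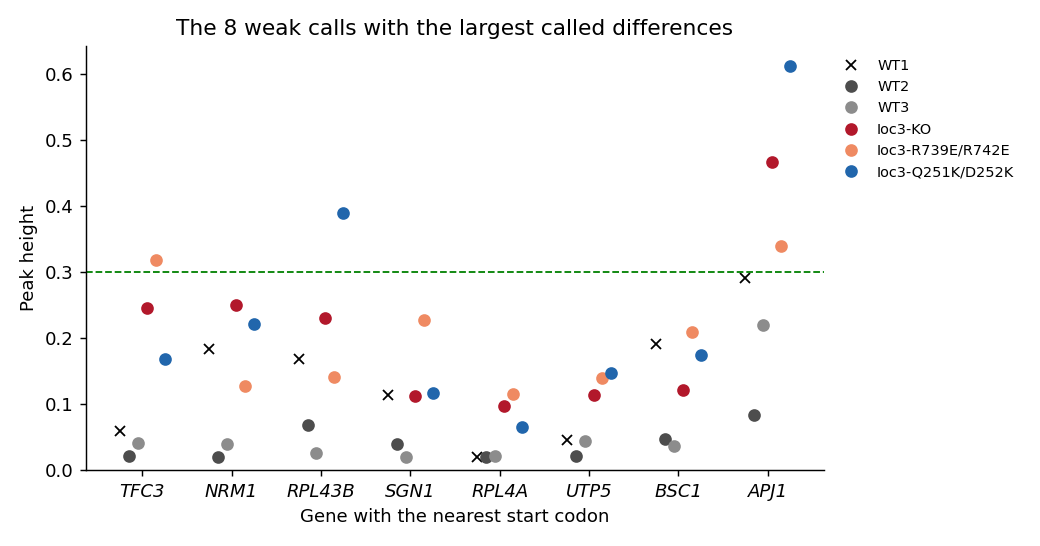
Peak height (y axis) in the 6 pools (WT1, which chose the calls and was not in the fit, as crosses) of the 8 weak calls with the largest called height differences, by the gene with the nearest start codon (x axis); the dashed line marks 0.3. WT2 and WT3 lie below the Ioc3 pools for all 8, and WT1 lies at or above the lowest Ioc3 pool for NRM1, RPL43B, SGN1 and BSC1.

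By gene list, the differences of weak calls in the start codon windows had medians above 0. The counts called stand beside 13.2% of all tested weak calls and 0.971% of all calls called higher, with the constant prior that gave 139 weak calls higher where a prior following the height gave 55. In ribosomal protein windows 54 of 139 weak calls were tested, 5 were called higher and 0 lower, and the median log2 difference was 0.29, below the 0.48 of all tested weak calls. In ribosome biogenesis windows 21 of 52 were tested and 4 were higher, with a median of 0.85. Heat shock and chaperone windows gave 4 of 7 higher with a median of 0.79, amino acid synthesis 1 of 18 with 0.56, meiosis 1 of 3, and cyclins, general regulatory factors and glycolysis 0 of 3, 5 and 5; the 2 at histone genes were not tested. No weak call of any list was called lower in the pooled comparison.

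At the general regulatory factor genes the values varied without passing the test. The call 226 bp upstream of ABF1 had heights of 0.164 in WT1, 0.137 in WT2, 0.225 in WT3, 0.329 in Ioc3-KO, 0.227 in Ioc3-R739E/R742E and 0.261 in Ioc3-Q251K/D252K (limma adjusted p = 0.13). The call 216 bp upstream of REB1 had 0.160, 0.110, 0.247, 0.213, 0.231 and 0.138 in the same order (limma adjusted p = 0.65). For REB1 the genotypes overlapped, and for ABF1 WT3 came within 0.01 of the lowest Ioc3 pool.

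Some genes were looked up whatever their values. PHO5, PHO8, GAL1, MET16, HTA1 and ISW1 had no weak WT1 call in the window. ZUO1, for a chaperone at the ribosome, had 2 weak calls. The one nearer to the start codon (chromosome VII, position 1063405) had heights of 0.119 in WT1, 0.107 in WT2, 0.0891 in WT3, 0.241 in Ioc3-KO, 0.166 in Ioc3-R739E/R742E and 0.168 in Ioc3-Q251K/D252K. WT2 and WT3, with 6 and 7 reads, were below all Ioc3 pools. The log2 difference was 1.04 ± 0.18 (SE, limma adjusted p = 0.0264). With a prior that follows the height the limma adjusted p was 0.15, and the reads did not pass (edgeR adjusted p = 0.19). Its second call, 88 bp further upstream, had no match in WT3 or Ioc3-Q251K/D252K.

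DBP2, for a DEAD-box RNA helicase, had a call 201 bp upstream (chromosome XIV, position 413438) with heights of 0.0686 in WT1, 0.0711 in WT2, 0.0782 in WT3, 0.215 in Ioc3-KO, 0.0502 in Ioc3-R739E/R742E and 0.185 in Ioc3-Q251K/D252K. Ioc3-KO and Ioc3-Q251K/D252K were high and Ioc3-R739E/R742E was lower than WT2 and WT3, and the pooled difference did not pass (limma adjusted p = 0.37). HST3, for a histone deacetylase of the sirtuin family, had a call 201 bp upstream with 0.126, 0.107 and 0.106 in the wild-type pools and 0.0758, 0.1 and 0.256 in the Ioc3 pools, which overlapped (limma adjusted p = 0.69). MPS3, for a nuclear envelope protein, had 2 weak calls, neither of which was tested. IOC3 itself had a weak call 151 bp upstream (YFR013W, chromosome VI, position 169771), with a height of 0.0858 in WT1 and 0.0635 in WT2 and no match in WT3 or in any Ioc3 list.

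The tested weak calls with the lowest mean height rested on almost no reads. The call 202 bp upstream of URA7, for a CTP synthase, had 5 reads in WT1, 1 in WT2, 0 in WT3, 3 in Ioc3-KO, 5 in Ioc3-R739E/R742E and 6 in Ioc3-Q251K/D252K. At such counts no difference can be read. At the other end, the call 208 bp upstream of PHA2, an enzyme of phenylalanine synthesis, had heights of 0.215 in WT1, 0.288 in WT2, 0.275 in WT3, 0.996 in Ioc3-KO, 0.682 in Ioc3-R739E/R742E and 0.398 in Ioc3-Q251K/D252K. The Ioc3 pools were all higher than WT2 and WT3. Its reads passed (edgeR adjusted p = 0.0338), its height did not (limma adjusted p = 0.0626), and with a prior that follows the height it did (limma adjusted p = 0.00642). The fold of mean height, Ioc3 pools over WT2 with WT3, was 2.46 for PHA2, the largest among the calls drawn as highest in mean height. Near the other genes of that set it was 1.76 (VIK1), 1.63 (VBA3), 1.49 (YGR050C), 1.34 (GLC3), 1.15 (MRX16), 1.00 (GLK1) and 0.739 (PAU24).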

How the data were processed

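The submitters' processing notes name Trimmomatic, Bowtie2 and SAMtools as tools and sacCer3 as the build. For the caller of nucleosomes, its settings and the handling of duplicate reads, a name or value is not given in the sources used here. Per the file headers, each deposited list gives for every call its position in bp, the peak height (the authors' smoothed signal at the summit), the standard deviation of read positions in bp and the read count. The totals per list differ by under 1%, so the deposited counts may have been brought to a common depth by the authors. Replicates are pooled within a list, and biological spread within a genotype can be seen only between WT1, WT2 and WT3. The series' design text describes wild-type and mutant groups as compared in pairs, with a further pair of wild-type groups, but the pairs are not named in the labels, so the pools were not paired, and WT1 may be the partner of a mutant pool.

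Calls were matched to WT1 calls within 70 bp, one to one (mutual nearest) for the tests. Log2 heights minus the pool's median and standard deviations were tested with limma 3.58.1, and read counts with edgeR 4.0.16 (quasi-likelihood, TMM, no filter on low counts), with DESeq2 1.42.0 as an alternative, in R 4.3.3. p-values were adjusted by Benjamini-Hochberg over all calls tested, at 0.05. Each test was tried on simulated data with known changes, and the outcome is not given here. The simulated heights had the same spread for every call, whereas weak calls vary more than others. The trial therefore does not bear on the number of weak calls called. Positions are as the lists give them, and whether they count from 0 or 1 is not stated; start codons come from the R64 gene table, the same assembly as sacCer3. Alternatives were another matching limit, height threshold, centring, prior, filter and scaling, and each pool left out.

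The weak calls, gene lists and tests were chosen with earlier results of these data known. Calls named in the text were drawn from several sets. These were up to 8 per fit and direction with the largest called change, and the 8 lowest and 8 highest in mean height. Further sets were the 6 found only in WT1 with the most reads and those at 11 genes looked up whatever their values. A last set was up to 3 per gene list. Not every call of these sets is named, and those called lower in a genotype fit are not. Promoter sequences and motifs were not used here. The differences at tRNA genes, the calls in the coding sequence of IOC3, and the fits on calls weak in Ioc3-KO were added after values were seen.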

Additional observations from a re-analysis of the deposited data

How the results depend on the processing

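No paired analysis was possible because both replicates of a group are pooled in 1 list, and the labels do not say which wild-type pool belongs to which mutant. Presence is given for WT2, then WT3, Ioc3-KO, the R739E/R742E mutant and the Q251K/D252K mutant. It was 62.8, 63.9, 65.5, 67.5 and 65.0% when matches had to lie within 50 bp, and 81.5, 83.1, 85.3, 85.5 and 84.2% within 100 bp. It was 67.3, 68.2, 69.8, 71.4 and 68.7% for heights under 0.2. For heights under 0.5 it was 71.9% in WT2, 74.8% in Ioc3-KO, 76.4% in Ioc3-R739E/R742E and 73.9% in Ioc3-Q251K/D252K. One-to-one matching gave 67.3, 68.7, 70.7, 72.4 and 70.01%, and leaving out weak calls within 100 bp of another WT1 call gave 71.8, 73.9, 76.2, 77.4 and 75.4%. The share in the start codon window was 80.9% for heights under 0.2, 64.1% under 0.5, 77.6% without the calls within 100 bp of another, and 56.7% in a window from 250 bp before to the start codon (8.25% of the other calls). The share with a call under 100 bp away was 24.1% for heights under 0.2 and 34.1% under 0.5.

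The count of weak calls called for height was 76 for heights under 0.2 (12.1% of those tested) and 226 under 0.5 (12.8%). In both, 0.971% of all calls were higher. Without centring it was 54 (5.13%, where 0.216% of all calls were higher). A prior that follows the height gave 55 (5.22%, where 5.13% of all calls were higher). The count was 9 for calls weak in Ioc3-KO with all 3 wild-type pools, and 2 with the prior that follows the height. Both were chosen after seeing the data. Leaving out a pool gave 45 to 198 (75 without WT2). For reads it was 6 for heights under 0.2 (0.957% of those tested) and 29 under 0.5 (1.64%), where 1.02% of all calls were higher. It was 0 with DESeq2 (105 at an unadjusted DESeq2 p under 0.05, where 3.81% of all calls were). With a pool left out it was 0 to 37, where 0 to 3.73% of all calls were called. For fuzziness, leaving out a pool gave 3 to 17 (15 without WT2, 4 without Ioc3-KO and 4 without Ioc3-Q251K/D252K). By genotype, heights under 0.2 and under 0.5 gave 183 and 440 for Ioc3-KO and 137 and 396 for Ioc3-Q251K/D252K, and under 0.2 gave 33 for Ioc3-R739E/R742E. The prior that follows the height gave 52 for Ioc3-KO, 9 for Ioc3-R739E/R742E and 23 for Ioc3-Q251K/D252K. Fewer or more calls enter at other height thresholds; for the other settings the cause was not tested. In every one of these settings the median log2 difference in height and in reads was above 0. A weak call rests on a median of 18 reads in WT1, and this depth limits what single calls can show.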

Other observations

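Weak calls outside start codon windows were somewhat taller than those inside. In WT1 the median height was 0.136 in the window, 0.201 in coding sequence outside it and 0.189 in neither, and the median read counts were 16, 27 and 22. A call closer than 100 bp was present for 24.6, 31.3 and 36.0% of them. Presence in the other lists was lowest for the 99 in coding sequence, from 64.6% in WT3 to 70.7% in Ioc3-R739E/R742E.

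Weak calls present in more lists were less fuzzy and less crowded in WT1. The median standard deviation of read positions was 43.9 bp for those found in no other list, 40.1 bp for those found in 3 and 36.2 bp for those found in all 5. The nearest WT1 call was at 104, 113 and 131 bp in the same order. The share in the start codon window showed no order: it was 70.5, 70.05, 78.5, 73.3, 77.7 and 74.1% for 0 to 5 lists.

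In the start codon windows of 2 or more genes, 168 weak calls were tested. Their median height was 0.125 in WT2, 0.130 in WT3, 0.179 in Ioc3-KO, 0.163 in Ioc3-R739E/R742E and 0.158 in Ioc3-Q251K/D252K, each lower than for the 616 in the window of 1 gene, where it was 0.149, 0.156, 0.209, 0.185 and 0.193. The median log2 difference between the Ioc3 pools and WT2 with WT3 was 0.46 and 0.48 for these groups.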
